A study of Danio rerio with 4 samples.

Results

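The genes described are 8 zebrafish (Danio rerio) genes of the actin and myosin machinery, listed under the name non-muscle actomyosin genes. They are the myosin heavy chain genes myh10, myh9a and myh9b, the regulatory light chain genes myl9a and myl9b, the actin cross-linker genes actn1 and flna, and the tropomyosin gene tpm1. The name is a label for the list, and the values do not settle whether tpm1 belongs among non-muscle genes. They were taken by gene symbol from a table of 18105 genes, in which all 8 had a row. They were chosen by name with their values in this comparison of the 2 groups already known, so the difference between the groups is described here and not tested.

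RNA-seq was run on ventricular cardiomyocytes of adult zebrafish, sorted by fluorescence in 2 groups of 2 libraries. Cells of the myl7:EGFP+ group (7000 cells) carried EGFP under myl7, a cardiomyocyte promoter, so this group marks cardiomyocytes at large. Cells of the tp1:EGFP+/myl7:DsRed2-NLS+ group (2000 cells), called tp1:EGFP+ below, carried EGFP under tp1, an element that responds to Notch, and nuclear DsRed2 under myl7. The groups therefore differed in transgenes, sort gate and cell number as well as in reporter activity. The protocol names 2 library kits without saying which served which library, so a kit effect cannot be told apart from a difference between groups or replicates. Cardiomyocytes with Notch activity were not removed from the myl7:EGFP+ group. The sources used here do not say whether a library holds 1 fish or several, so the spread between the 2 libraries of a group may be technical.

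Non-muscle myosin II is a motor built from a pair of heavy chains with essential and regulatory light chains, and it pulls on actin filaments in stress fibres, the cell cortex and the cleavage furrow. Phosphorylation of the regulatory light chain by myosin light chain kinases and other kinases switches the motor on, and a myosin phosphatase switches it off. Alpha-actinins and filamins tie actin filaments into bundles and networks, and tropomyosins wrap the filaments and set which myosins can bind. Adult cardiomyocytes carry out contraction with separate sarcomeric myosins, alpha-actinin and tropomyosins.

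The values were read counts normalized by the authors and rounded to whole numbers, and they summed to between 1552636 and 2130733 per library. In the replicate 2 libraries the values moved in steps of 3.11 in myl7:EGFP+ and of 2.98 in tp1:EGFP+. A step is what 1 read was worth, which puts their depth at 685344 and 685085 reads. In the replicate 1 libraries a read was worth less than 1 and rounding hid the steps. The replicate 2 libraries are therefore the coarser ones, and both groups have one of each kind. Cardiomyocyte markers had 12 rows in the table, which summed to 41669 and 72969 in myl7:EGFP+ and to 39918 and 63667 in tp1:EGFP+. Those sums rest largely on ttn.1 and ttn.2. Of the 12, 0 passed the test, with a median log2 difference of 0.04. This does not show equal levels, since the SE was 1.27 for myl7 and 1.34 for tnnt2a, whose libraries differed widely within a group. The fit also borrows spread from genes of like level. That mostly set the SE of 3.59 for ttn.2, whose values were 18257 and 22692 against 18845 and 23416. Over all tested genes the median SE was 0.446. The smallest adjusted p among the 12 was 0.0871 (limma), for ryr2b, with a log2 difference of -1.34 ± 0.47 (SE). Its tp1:EGFP+ values, 1150 and 1040, were both below its myl7:EGFP+ values, 2697 and 2832. The SE of ryr2b was likewise larger than these values alone would give.

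Among the 8 genes, 5 stood higher in both tp1:EGFP+ libraries than in both myl7:EGFP+ libraries, and 3 overlapped between the groups. The 5 were myh10, myh9a, actn1, flna and tpm1. The 3 that overlapped were both regulatory light chain genes and myh9b. A total of 7 genes averaged at least 10 across the 4 libraries and entered the fit across all genes by limma on log2(value + 1). Of these 7, 4 passed a Benjamini-Hochberg adjusted p of 0.05, all higher in tp1:EGFP+, beside 16.1% of the 9921 tested genes called higher and 18.0% called lower. The share of tested genes with both tp1:EGFP+ values above both myl7:EGFP+ values was 34.1%. Because the 8 genes were chosen with these values in view, nothing is read from those counts. In addition, actn1 and tpm1 reached the minimum mean only through tp1:EGFP+, as their myl7:EGFP+ means were 5.0 and 9.5. The calls also rested on having both libraries of each group, since most or all were lost when 1 library was left out. In such a fit the spread of the group left with 1 library no longer enters. The log2 differences of myh10, actn1, flna and tpm1 kept their sign in those fits.

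**Figure D1:**
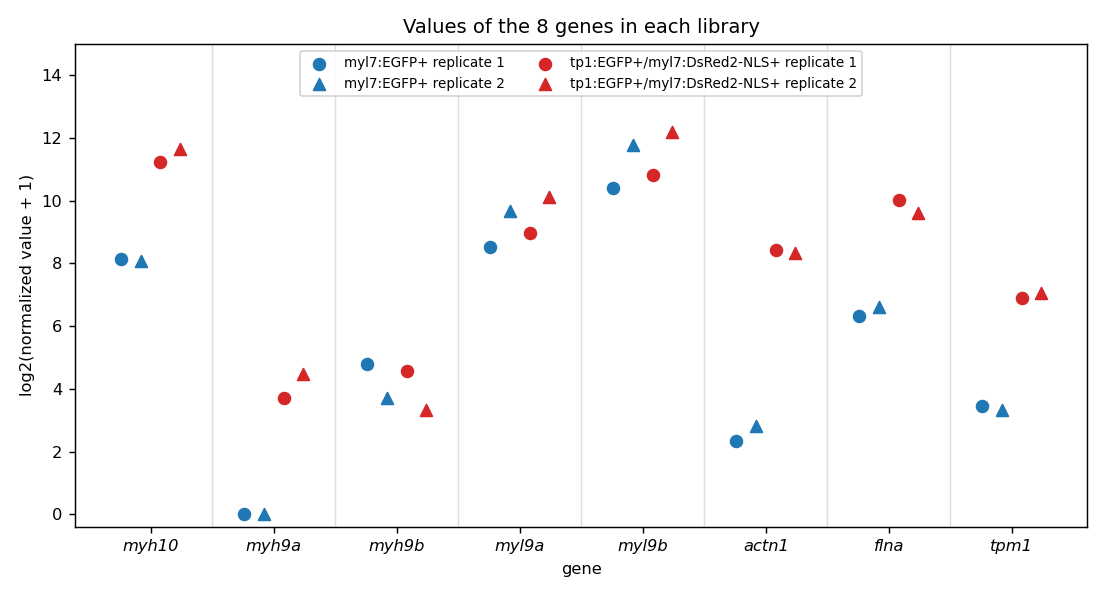
The vertical axis gives log2(normalized value + 1) and the horizontal axis the 8 genes, with 1 point per library, coloured by group and shaped by replicate number. The tp1:EGFP+ points of myh10, myh9a, actn1, flna and tpm1 lie above their myl7:EGFP+ points, whereas for myl9a, myl9b and myh9b the points of a replicate number lie closer together than the points of a group.

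The heavy chain gene myh10 (ENSDARG00000000103, chromosome 6, 7553085 to 7658285, plus strand, GRCz11), which encodes non-muscle myosin IIB, had values of 283 and 267 in myl7:EGFP+ replicates 1 and 2 and of 2400 and 3231 in tp1:EGFP+ replicates 1 and 2. Both tp1:EGFP+ libraries were high and the groups did not overlap. The group means were 275 ± 11.3 and 2816 ± 588 (SD, n = 2), a ratio of 10.2, and the log2 difference was 3.34 ± 0.35 (SE). The ratio was 8.48 between the replicate 1 libraries. In the replicate 2 libraries the values stood for 86 and 1084 reads, a ratio of 12.08, and its 95% interval ran from 9.69 to 15.2 (exact binomial, counting error only, as for all such intervals).

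The other heavy chain genes of this class are counterparts of mammalian MYH9, which encodes non-muscle myosin IIA, and both were near the lower end of what these libraries resolve. For myh9a (ENSDARG00000063295, chromosome 6, 7735806 to 7776612, minus strand) both myl7:EGFP+ libraries were listed at 0 and the tp1:EGFP+ libraries had 12 and 21. Its mean of 8.25 was under the minimum for the fit, and its 21 in tp1:EGFP+ replicate 2 stood for 7 reads. At the depth of myl7:EGFP+ replicate 2, a count of 0 allows up to 3 reads, or a value of 9.33, so a low level there would not have been detectable. For myh9b (ENSDARG00000001014, chromosome 3, 5102656 to 5228841, minus strand) the values were 27 and 12 in the myl7:EGFP+ libraries, against 23 and 9 in the tp1:EGFP+ libraries. Those groups overlapped, with a log2 difference of -0.30 ± 0.69 (SE), and the replicate 2 values rested on 4 and 3 reads. The interval of their ratio, 0.105 to 4.25, shows that no difference in myh9b of moderate size was detectable in the replicate 2 libraries alone. Between the finer replicate 1 libraries the ratio was 0.85, without an interval, as reads could not be stepped out there.

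The remaining non-muscle heavy chain gene, myh14, which encodes the counterpart of myosin IIC, was not among the 8 genes and was tested. Its values were 393 and 351 in the myl7:EGFP+ libraries, against 274 and 212 in the tp1:EGFP+ libraries, with a log2 difference of -0.62 ± 0.26 (SE). The tp1:EGFP+ values were the lower ones, but the gene did not pass (adjusted p = 0.129, limma). The genes of this class thus had unlike values in the comparison. Their ratios were about 10.2 for myh10, higher in tp1:EGFP+, and under 1 for myh14. Both tp1:EGFP+ values of myh9a were also the higher ones, at 12 and 21 against 0 and 0. The ratio of myh9b was under 1 as well, but its groups overlapped and its reads were few. Whether the differences of these genes differ from one another was not tested, because myh10, myh9a and myh9b were chosen with them known. These paralogs share sequence, and the sources used do not say how the authors' counting treated reads that fit several of them.

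The regulatory light chain genes overlapped between the groups. For myl9a (ENSDARG00000038123, chromosome 23, 42810055 to 42823356, plus strand) the values were 367 and 808 in the myl7:EGFP+ libraries, against 506 and 1115 in the tp1:EGFP+ libraries. For myl9b (ENSDARG00000008030, chromosome 6, 1787160 to 1799561, plus strand) they were 1365 and 3529 in the myl7:EGFP+ libraries, against 1811 and 4691 in the tp1:EGFP+ libraries. In both genes the replicate 2 library of each group was the high one. The same held for other genes, such as tpm4a, but not for myh9b. For tpm4a the values went from 603 to 3902 in myl7:EGFP+ and from 860 to 4730 in tp1:EGFP+. The step from replicate 1 to replicate 2 was 1.14 in each group for myl9a and 1.37 in each group for myl9b on the log2 scale, against a median over all tested genes of -0.14 in myl7:EGFP+ and -0.11 in tp1:EGFP+. The log2 differences between groups were 0.46 ± 0.58 for myl9a and 0.41 ± 0.87 for myl9b (SE), smaller than those steps, and both changed sign when myl7:EGFP+ replicate 1 or tp1:EGFP+ replicate 2 was left out, as did that of myh9b.

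Within a replicate number, the tp1:EGFP+ value of each light chain gene was higher by nearly the same ratio both times. The ratio was 1.38 for myl9a between the replicate 1 libraries and again between the replicate 2 libraries, and 1.33 for myl9b in both. In the replicate 2 libraries the counting interval of that ratio was 1.17 to 1.62 for myl9a (260 and 374 reads) and 1.23 to 1.44 for myl9b (1135 and 1574 reads). The labels do not say that libraries of the same number were prepared together, so this agreement is given as a description.

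Other light chain genes were tested. The essential light chain gene myl6, whose product serves smooth and non-muscle myosin, rose from 134 and 124 to 251 and 367 (log2 difference 1.23 ± 0.28 SE; adjusted p = 0.0288, limma). The regulatory light chain genes myl12.1 and myl12.2 had 473 and 793 against 632 and 1043, and 124 and 180 against 208 and 256. Neither of these relatives of myl9 passed, with log2 differences of 0.41 ± 0.44 and 0.62 ± 0.29 (SE). The smooth muscle heavy chain gene myh11a was at 0 in each myl7:EGFP+ library, against 60 and 48 in tp1:EGFP+ (adjusted p = 0.00213, limma). Over the 5 tested myosin II chain genes outside the 8, 2 rose, 0 fell and 3 did not pass.

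The cross-linker gene actn1 (ENSDARG00000007219, chromosome 13, 36321088 to 36391502, minus strand), which encodes the non-muscle alpha-actinin of stress fibres and focal adhesions, had values of 4 and 6 in the myl7:EGFP+ libraries, against 341 and 322 in the tp1:EGFP+ libraries. The groups were far apart, with means of 5.0 ± 1.41 and 331.5 ± 13.4 (SD, n = 2) and a log2 difference of 5.81 ± 0.38 (SE), at percentile 99.1 of all tested genes. The size of the ratio is poorly fixed because the lower group is near its floor. Between the replicate 2 libraries it was 51.8, from 108 against 2 reads, with an interval of 13.99 to 433, and with a pseudocount of 10 in place of 1 the log2 difference was 4.51.

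The sarcomeric alpha-actinin gene actn2b, whose product anchors thin filaments at the Z-disc, had 1606 and 8133 in the myl7:EGFP+ libraries, against 2132 and 7111 in the tp1:EGFP+ libraries. It did not pass, and its SE was 1.24 around a log2 difference of 0.11, so a moderate change could hardly have passed. The other non-muscle alpha-actinin gene, actn4, rose from 30 and 47 to 91 and 122 (log2 difference 1.46 ± 0.38 SE; adjusted p = 0.0404, limma), named here after its values were seen.

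The filamin gene flna (ENSDARG00000074201, chromosome 23, 19759128 to 19809027, plus strand), which encodes a long actin cross-linker that also binds integrins and membrane receptors, had 79 and 96 in the myl7:EGFP+ libraries, against 1045 and 778 in the tp1:EGFP+ libraries. The groups did not overlap, at means of 87.5 ± 12.02 and 911.5 ± 189 (SD, n = 2) and a log2 difference of 3.36 ± 0.28 (SE). The ratio was 13.2 between the replicate 1 libraries and 8.10 between the replicate 2 libraries, where it rested on 31 and 261 reads. The related gene flnb rose from 1 and 0 to 62 and 51 (adjusted p = 0.00304, limma). In contrast, flnca and flncb, counterparts of the muscle filamin gene FLNC of mammals, had 3298 and 4548 against 2317 and 2792, and 551 and 364 against 338 and 197. Neither passed, with log2 differences of -0.61 ± 0.73 and -0.79 ± 0.39 (SE).

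The tropomyosin gene tpm1 (ENSDARG00000087402, chromosome 25, 33192404 to 33250323, plus strand) had 10 and 9 in the myl7:EGFP+ libraries, against 117 and 131 in the tp1:EGFP+ libraries. Both tp1:EGFP+ libraries were higher, with means of 9.5 ± 0.707 and 124 ± 9.90 (SD, n = 2), a ratio of 13.1 and a log2 difference of 3.57 ± 0.38 (SE). Between the replicate 2 libraries, 44 reads stood against 3, and the interval of their ratio was 4.51 to 70.8. In vertebrates this gene makes muscle and non-muscle tropomyosins by alternative splicing, and values per gene do not tell them apart. The deposited annotation files it under cardiac muscle contraction, so its place among non-muscle genes is not settled by these values.

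Other tropomyosin genes were tested. The genes tpm2 and tpm3 rose, from 254 and 215 to 890 and 1210 and from 95 and 127 to 373 and 525 (log2 difference 2.15 ± 0.30 and 2.00 ± 0.30 SE; adjusted p = 0.00732 and 0.00904, limma). The gene tpm4a, a tropomyosin of the zebrafish heart, had 603 and 3902 against 860 and 4730, and it did not pass. Its difference, 0.39 ± 1.257 (SE), is too uncertain to show whether it moved with the others. Of the tropomodulin and leiomodin genes, which cap or nucleate thin filaments, lmod2a fell from 451 and 426 to 35 and 15 and lmod3 from 65 and 31 to 9 and 6 (adjusted p = 0.00369 and 0.0298, limma). Their relatives lmod2b (561 and 432 against 831 and 703) and tmod1 (220 and 143 against 328 and 307) had both tp1:EGFP+ values higher. Neither passed, nor did tmod2 (42 and 44 against 36 and 33). Over this list 8 genes were tested, and 2 rose and 2 fell.

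**Figure D2:**
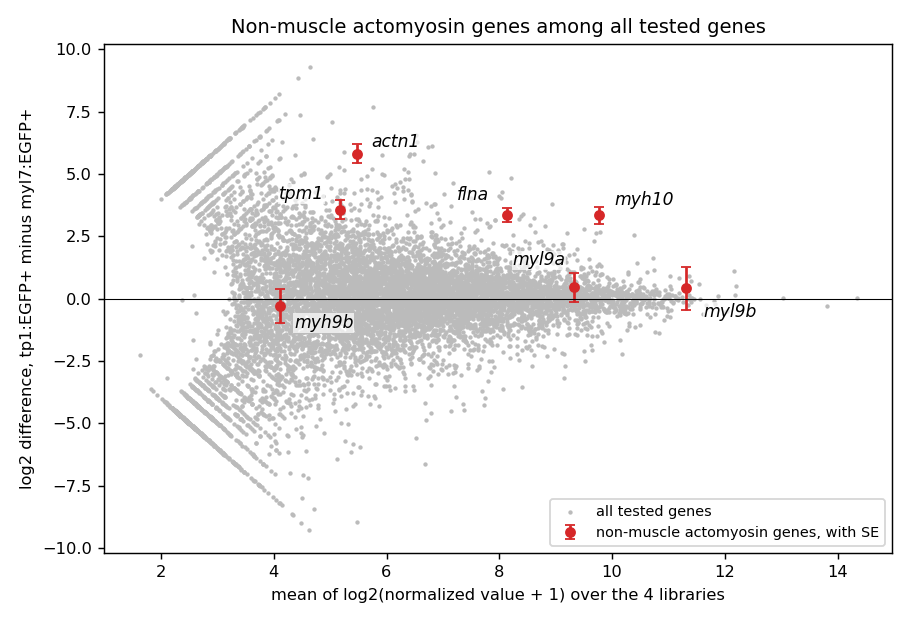
Each point is 1 of the 9921 tested genes, with the mean of log2(value + 1) over the 4 libraries on the horizontal axis and the log2 difference, tp1:EGFP+ minus myl7:EGFP+, on the vertical axis. The 7 tested genes of the list are in red with their SE, with actn1 at 5.81, tpm1, flna and myh10 between 3.34 and 3.57, and myl9a, myl9b and myh9b near 0.

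Over the 7 tested genes the median log2 difference was 3.34, beside 0.01 over all tested genes. As profiles over the 4 libraries, each centred on its own mean of log2(value + 1), myh10, tpm1 and flna lay close together, at Euclidean distances of 0.305 to 0.656. The pair myl9a and myl9b lay at 0.240 from each other and at 3.04 or more from myh10, tpm1 and flna. These distances rest on 4 points per gene and on the same libraries, and serve as a description.

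The genes whose profiles were most like each member were sought among 5156 named genes with a mean of at least 50. For myh10 the nearest was mapkapk3, a stress-activated protein kinase gene, at a distance of 0.185, with 104 and 106 in the myl7:EGFP+ libraries, against 1037 and 1198 in the tp1:EGFP+ libraries. Next came pomt2 and admb, at 0.332 and 0.372. For tpm1 the nearest were notum2, mapkapk3 and scube1 (0.155 to 0.298), and for flna they were mtss1, admb and cemip (0.248 to 0.389). The product of mtss1 binds actin and membranes in mammals.

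For actn1 the nearest profiles included those of the chloride channel gene clcn2a and the G protein subunit gene gng13b, at 0.379 and 0.497. For myh9a, whose own values were low, the nearest were rnd3b, znf207a and notum2, at 0.453 to 0.580. The light chain genes had closer matches, phlda2, fth1a and lyrm4 for myl9b (0.0515 to 0.117) and bzw1a, rnaseh2b and capns1a for myl9a (0.0836 to 0.111), and the fth1a product is ferritin heavy chain. The nearest to myh9b were mlycd, palm2-akap2 and mindy3, at 0.143 to 0.155.

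In position, the 8 genes lay on 5 chromosomes. The genes myh10 and myh9a were 77.5 kb apart on chromosome 6, with ttc26, rpsa, ubn2a and slc25a38b between them. Of these 4, 3 were tested and did not pass, and ttc26 was under the minimum, with 8 and 12 against 5 and 12. Next to the members, pa2g4a by myh10, dcaf5 by actn1, c2cd4a by tpm1 and emd by flna rose. Their log2 differences were 1.22, 2.03, 4.58 and 1.14, and c2cd4a lay 304 kb from tpm1. Of the other tested neighbours, ntan1 by myl9b fell, at -1.25, and the rest did not pass. Whether position bears on the values was not tested. The span of myl9a overlapped that of pfkfb2a on the other strand, which was listed at 0, 0, 1 and 0, and myh9b overlapped a clone-named gene, also on the other strand, listed at 1, 0, 0 and 0. The sources used do not state strand handling, so reads of overlapping genes cannot be told apart.

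The wider set of actomyosin genes, sorted into 8 lists without the 8 genes above, had 155 rows in the table and 122 tested genes. Of these, 32 rose (26.2%), 6 fell (4.92%) and 84 did not pass, beside 16.1% called higher and 18.0% called lower among all tested genes. Their median log2 difference was 0.44, against 0.01 over all tested genes. The lists were chosen with earlier results of these data known, so these shares and medians serve as a description. The same holds for the count of each single list, which is to be set beside the same 16.1% and 18.0%. All 38 called genes kept their sign under every alternative fitted to them, but most lost their call when 1 library was left out. Calls over all genes fell in the same fits. Such a fit leaves 1 library in a group, so the spread of that group no longer enters it. Which genes stay called then depends on how alike the libraries of the other group are, and is not read here. In size, the difference that shrank most was that of cnn1b, which kept 64.9%.

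**Figure D3:**
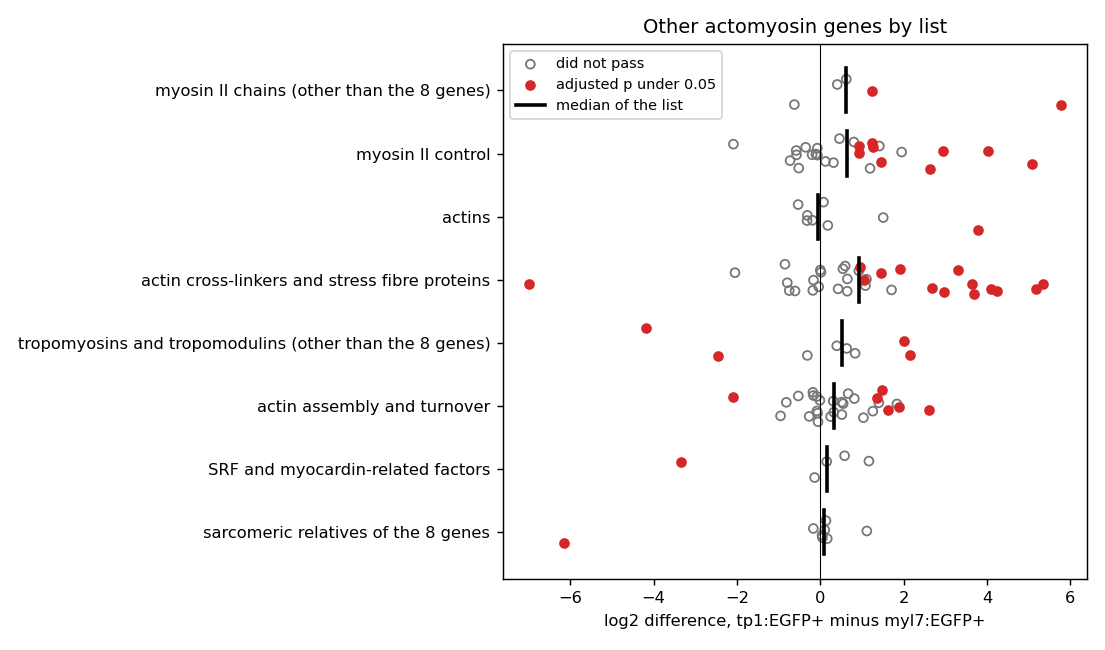
Each point is 1 tested gene of the wider lists, with its log2 difference, tp1:EGFP+ minus myl7:EGFP+, on the horizontal axis and its list on the vertical axis; filled points passed an adjusted p of 0.05 and bars mark list medians. The list of myosin control genes has 9 filled points, all at positive differences, and the cross-linker list has 13 at positive differences and 1, tln2a, at -6.98.

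Of 26 tested genes in the list of myosin II control (median log2 difference 0.63), 9 rose (34.6%), 0 fell and 17 did not pass. Over all tested genes 16.1% were called higher and 18.0% lower. The list holds kinase and phosphatase genes together, and some that act on actin, so its count gives no direction of myosin control. The LIM kinase gene limk2, whose product phosphorylates cofilin, rose from 30 and 47 to 1228 and 1383 (log2 difference 5.08 ± 0.30 SE; adjusted p = 0.00213, limma). The kinase gene rock2b, whose product phosphorylates the regulatory light chain, rose from 33 and 19 to 208 and 191 (adjusted p = 0.00568, limma). A second row with the symbol rock2b had 2 and 16 against 0 and 3, which is under the minimum. The gene rnd3b rose from 51 and 37 to 651 and 808 (adjusted p = 0.00213, limma). The paralogs rock2a (516 and 395 against 648 and 596) and rnd3a (39 and 34 against 31 and 15) did not pass. Both tp1:EGFP+ values were the higher ones for rock2a and the lower ones for rnd3a. The kinase genes rock1 and dapk3, named after their values were seen, were also among the genes that rose.

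The myosin phosphatase subunit gene ppp1r12a had 1064 and 1725 against 1148 and 1451, a log2 difference of -0.07 ± 0.47 (SE) that did not pass. Among the light chain kinase genes, mylka, the counterpart of the smooth muscle and non-muscle kinase gene, was at 0 in each myl7:EGFP+ library, against 7 and 6 in tp1:EGFP+, under the minimum for testing. The cardiac kinase gene mylk3 had 1237 and 1663 against 1007 and 995, with a log2 difference of -0.52 ± 0.40 (SE), and did not pass.

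Of 33 tested genes of cross-linkers and stress fibre proteins (median log2 difference 0.92), 13 rose (39.4%) and 1 fell (3.03%), beside 16.1% and 18.0% over all tested genes. Among them were the PDZ and LIM protein gene pdlim5a, which rose from 82 and 44 to 1229 and 897 (log2 difference 4.10 ± 0.39 SE; adjusted p = 0.00261, limma), and the actin-binding gene tagln2, which rose from 46 and 40 to 262 and 301. The gene that fell was tln2a, which encodes a talin that links integrins to actin, from 220 and 215 to 2 and 0 (log2 difference -6.98 ± 0.67 SE; adjusted p = 0.00271, limma). Its relative tln1 had 384 and 469 against 805 and 808, and it did not pass (adjusted p = 0.0617, limma). The vinculin genes vcla and vclb, the zyxin gene zyx and the spectrin gene sptan1 did not pass either, with log2 differences between -0.04 and 0.65.

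Among 8 actin rows tested, 1 rose and 0 fell. The smooth muscle actin gene acta2 rose from 128 and 134 to 1083 and 3022 (log2 difference 3.78 ± 0.54 SE; adjusted p = 0.00765, limma). The cytoplasmic actin genes actb1 and actb2 had 1013 and 3470 against 1216 and 1860, and 1027 and 3448 against 1297 and 3505. Neither passed, with log2 differences of -0.32 ± 0.75 and 0.18 ± 0.89 (SE), and the actin genes are so alike in sequence that their reads may have been split or lost in counting.

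Of 29 tested genes of actin assembly and turnover, 5 rose (17.2%) and 1 fell (3.45%), beside 16.1% and 18.0% over all tested genes. Those that rose were the formin genes fhod3b (24 and 16 to 146 and 107) and daam1b (110 and 106 to 304 and 256), the Arp2/3 subunit gene actr2a (148 and 121 to 426 and 334), the profilin gene pfn1 (99 and 152 to 333 and 432) and the cofilin phosphatase gene ssh2b, the last named after its values were seen. The cortactin gene cttn, also named after its values were seen, fell from 116 and 109 to 18 and 36. The paralogs of the 2 formin genes had both tp1:EGFP+ values lower and did not pass. They were fhod3a (325 and 208 against 197 and 110) and daam1a (578 and 609 against 516 and 471). Of 5 tested genes of serum response factor and its cofactors, which drive many actomyosin genes, 0 rose and 1 fell, mrtfaa, from 56 and 50 to 6 and 3 (log2 difference -3.35 ± 0.51 SE; adjusted p = 0.00947, limma). The gene srfa had 17 and 16 against 69 and 21, and the test was not passed.

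Sarcomeric relatives of the 8 genes had 0 higher and 1 lower among 8 tested (median log2 0.08). The gene that fell was myh6, the atrial myosin heavy chain gene of zebrafish, from 550 and 221 to 5 and 3 (adjusted p = 0.00261, limma). The heavy chain genes myh7ba and myh7bb had log2 differences of 0.05 ± 0.33 and -0.17 ± 0.43 (SE). Those of myh7l and myl7 were less certain, at 0.04 ± 1.95 and 0.17 ± 1.27 (SE). The heavy chain gene myh7 had 2312 and 4203 against 3830 and 11924. Its groups overlapped and it did not pass, with a log2 difference of 1.12 ± 1.12 (SE).

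**Figure D4:**
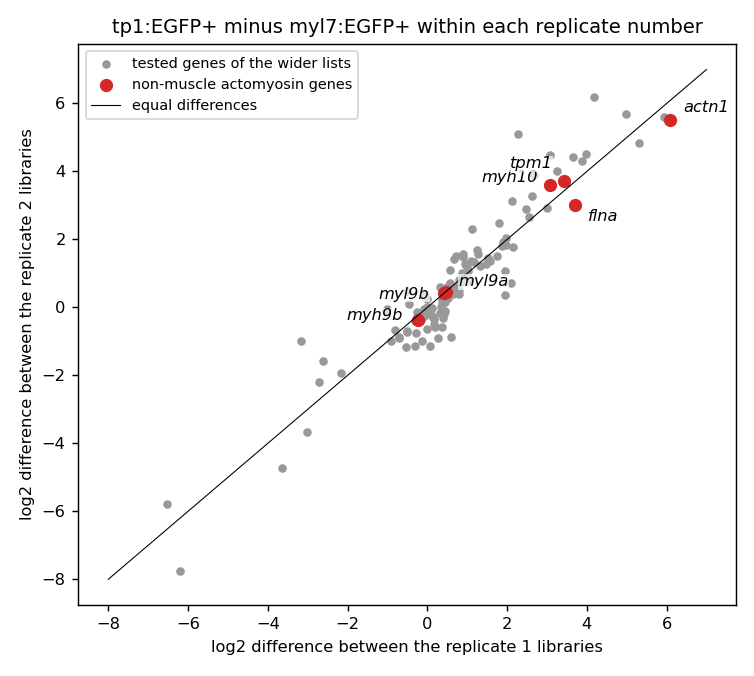
The horizontal axis gives the log2 difference, tp1:EGFP+ minus myl7:EGFP+, between the replicate 1 libraries and the vertical axis that between the replicate 2 libraries, for tested genes of the wider lists (grey) and the 7 tested non-muscle actomyosin genes (red). The red points lie near the line of equal differences, from -0.22 and -0.38 for myh9b to 6.10 and 5.53 for actn1.

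The pathway terms that the 8 genes carry in the deposited annotation gave lists that were not made by hand, added after the data were seen. As the 8 genes were chosen with their values known, the shares under these terms serve as a description. The term tight junction was shared by 6 of the 8 genes (the heavy chains, the light chains and actn1), focal adhesion by 4 and regulation of actin cytoskeleton by 3. Among the other genes under regulation of actin cytoskeleton, 34 rose and 21 fell of 138 tested, or 24.6% and 15.2%. Under focal adhesion 35 rose and 22 fell of 143, or 24.5% and 15.4%, and under tight junction 21 rose and 9 fell of 82, or 25.6% and 11.0%. Under cardiac muscle contraction, which holds tpm1, 2 rose and 6 fell of 53, or 3.77% and 11.3%. Under adherens junction 15 rose and 15 fell of 61 (24.6% each), and under MAPK signaling 26 rose and 27 fell of 166 (15.7% and 16.3%). Under adrenergic signaling in cardiomyocytes 12 rose and 18 fell of 102 (11.8% and 17.6%). Under vascular smooth muscle contraction 14 rose and 9 fell of 62 (22.6% and 14.5%). Under Salmonella infection 10 rose and 5 fell of 47 (21.3% and 10.6%). Over all tested genes 16.1% were called higher and 18.0% lower.

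Markers of other cell types differed between the groups as well, and their part in the values above was not tested. Mural and smooth muscle cells express many of these actomyosin genes, and 6 of 8 tested mural markers rose and 0 fell. Over all tested genes 16.1% were called higher and 18.0% lower. Their 11 rows summed to 1555 and 2365 in myl7:EGFP+ and to 3158 and 5539 in tp1:EGFP+. The myl7:EGFP+ sums rest largely on rgs5b (438 and 1032) and mcamb (930 and 1172). In tp1:EGFP+ the largest row was acta2, at 1083 and 3022. The 3 markers at 0 in each myl7:EGFP+ library were myh11a, pdgfrb and rgs5a, the last under the minimum for testing. In tp1:EGFP+ their respective values were 60 and 48, 19 and 27, and 9 and 9. Of the rising markers, tagln (24 and 6 against 451 and 510), cnn1b, acta2 and myh11a also stand in the lists above. The others called were pdgfrb and the Notch receptor gene notch3 (22 and 9 against 474 and 370). The tp1 element of the sort itself responds to Notch, so notch3 is not a marker apart from the sort. The genes rgs5b and mcamb did not pass.

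Erythroid markers rose in 5 of 7 cases and summed to 53 and 47 against 175 and 382. All 5 were rows of globin genes. The other erythroid markers, hemgn (26 and 25 against 19 and 42) and slc4a1a (25 and 22 against 11 and 18), did not pass. Epicardial and fibroblast markers rose in 2 of 6 tested cases and fell in 0, with sums over 11 rows of 168 and 160 against 199 and 204. Endothelial markers fell in 6 of 9 tested cases and rose in 2, with sums over 13 rows of 732 and 463 against 134 and 117. Of 2 tested leukocyte markers both fell, and all 8 leukocyte rows summed to 54 and 77 against 3 and 6. Thrombocyte and neural markers each had 1 higher and 1 lower of 2 tested. In bulk samples, a larger share of cells of another type and more RNA of a gene per cell cannot be told apart.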

How the data were processed

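The series is RNA-seq of 4 libraries in 2 groups. The submitters' processing notes name DESeq2 1.26.0, Subread 1.6.5 with featureCounts, STAR 2.6.1d and Trimmomatic 0.39, beside the genome builds GRCz11 and danRer11. Settings are not given in the sources used. Per the labels' protocols, cDNA was amplified from low nanogram amounts of RNA with a SMART-Seq v4 kit. What the authors deposited is entered as a score: read counts that had been normalized and then rounded to whole numbers. No count model was therefore fitted. Reads could be stepped out in the replicate 2 columns, where 99.9% and 98.6% of values up to the searched limit were exact rounded multiples of the step, and not in replicate 1.

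Values were used as deposited and tested with limma 3.58.1 (R 4.3.3) on log2(value + 1), with trend, on genes averaging at least 10; this scale understates changes of low genes. Differences are tp1:EGFP+ minus myl7:EGFP+. Tables and plots used Python 3.11.15, pandas 2.3.3 and matplotlib 3.10.9. Genes and lists were chosen with earlier results of these data known. Named genes were the 8 genes, up to 4 called genes per list with the smallest p, and 3 nearest profiles per gene; others are named as a count or a family required and were chosen after their values were seen. On simulated data with 3400 of 9921 genes changed, 63.8% of 4-fold changes were recovered and 90 of 6521 unchanged genes were called. With 200 changed, 0 of 50 such changes were recovered. The simulated libraries were drawn independently, whereas the deviations of same-numbered libraries correlated in these data (r = 0.442). The rates may therefore not hold for these data. A few genes that the naming rule selects are not reported here. A total of 15 alternatives were fitted.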

Additional observations from a re-analysis of the deposited data

How the results depend on the processing

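The median log2 difference of the tested members was 3.34, and 2.78 with a pseudocount of 10; it lay within the spread between libraries under the other alternatives. With a mean of at least 50, 709 genes were higher and 634 lower over the whole table, and with a required change of 2-fold 821 and 999, with 16 of the wider actomyosin genes higher. Leaving out each library in turn gave 69 to 271 genes higher and 137 to 365 lower over the whole table, and 1 to 2 higher and 0 to 2 lower among the wider actomyosin genes. These fits leave 1 library in a group, which is assumed to vary like the other group, and the median difference of the members was then between 3.12 and 3.29.

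With the replicate number as a block, 2845 and 2876 genes were called over the whole table and 56 and 14 of the wider actomyosin genes, and 5 members passed, myl9a being the addition. The labels do not say that the numbers pair the libraries, and the deviations of same-numbered libraries from their group means correlated at r = 0.442 across 9921 genes. Of 41 named genes outside the members, no difference that passed in a fit reversed its sign. Most differences that had passed lost their call when 1 library was left out. Under other settings 12 of 447 values lost it. That total includes the nearest profiles of myl9a, myl9b and myh9b, which had not passed and so had no call to lose. The filter decides whether myh9a enters the fit, and without it myh9a passed, at 0 and 0 against 12 and 21. As the members were chosen with their values known, nothing is read from this pass or from the 5 under the replicate block. Depth limits the low values most, since 1 read was worth about 3 in the replicate 2 libraries.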
